A study of Mus musculus with 11 samples.

Results

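The 10 genes described here form the core loop of the circadian clock: Arntl, Clock, Npas2, Per1, Per2, Per3, Cry1, Cry2, Nr1d1 and Nr1d2. They were taken by symbol from the 24914 rows of the deposited count files of mouse whole kidney, and all 10 passed the filter on low counts. The set was chosen by measured values: it was proposed after earlier results of these same libraries had shown its levels to differ between them. Levels of the members and their differences between groups are therefore given as a description. The kidneys came from 129X1/SvJ mice aged 5.5 weeks in a model of Alport syndrome, an inherited disease of the glomerular basement membrane caused by loss of type IV collagen chains such as that of Col4a3. HET PBS names the 3 libraries from heterozygotes (Col4a3+/-) treated with PBS. KO PBS names 4 libraries from knockouts (Col4a3-/-) that also received PBS, and KO antimiR-21 names 4 from knockouts that received antimiR-21, an oligonucleotide inhibitor directed at the microRNA miR-21. No wild-type group and no antimiR-21 group of heterozygotes was among them, and the labels give no hour of the day at which kidneys were collected. The design text speaks of mice per group without tying a library to an animal, so a p-value here measures the spread between these libraries.

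The clock is a loop of transcription and repression that runs in most cells and keeps a period of about a day. Arntl (BMAL1) pairs with Clock or with its close relative Npas2, and the pair binds E-boxes and activates the Per, Cry and Nr1d genes. The Per and Cry proteins build up and repress that pair, while Nr1d1 and Nr1d2 (REV-ERB alpha and beta) repress Arntl and Npas2 through elements that they share with the activating ROR receptors. As a result, in kidney as in other peripheral organs, Arntl and Npas2 transcripts peak at a time of day when Per3 and Nr1d transcripts are low. The kidney clock is known for its part in daily rhythms of sodium transport, filtration and urine output.

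The sites through which these proteins act are shown for the members that carry one near an annotated start. RefSeq start windows of 300 bases, from 250 before to 50 after the start (GRCm38.p6), were found for 9 of the 10 genes, 13 windows in all. Per2 had no window in that table. Both strands were searched for the E-box CACGTG, the D-box TTATGTAA bound by the output factors Tef and Hlf, and the ROR element, written AAN and then TAGGTCA. Of 32851 windows of mouse genes, 7.15% held the E-box, 0.938% the D-box and 0.219% the ROR element. Among the clock genes 4 held a match, which is a run of letters and not a measured binding site, and each match is printed in capitals, 5′ to 3′ on the strand of the gene. Arntl had a ROR element in the window of its second start, from 28 to 37 bases after it, shown as the 30 bases at chr7:113207528-113207557 (plus strand). Per1 had an E-box from 166 to 161 bases before its first start, shown in 100 bases at chr11:69098739-69098838 (plus strand). Per3 had a pair of D-boxes, from 205 to 198 and from 158 to 151 bases before its start, shown in 100 bases at chr4:151044796-151044895 (minus strand). Cry1 had an E-box from 60 to 55 bases before its start, shown in 100 bases at chr10:85185065-85185164 (minus strand).
Arntl: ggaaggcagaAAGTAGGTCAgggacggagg
Per1: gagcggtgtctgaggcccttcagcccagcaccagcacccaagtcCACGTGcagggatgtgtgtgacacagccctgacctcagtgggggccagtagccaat
Per3: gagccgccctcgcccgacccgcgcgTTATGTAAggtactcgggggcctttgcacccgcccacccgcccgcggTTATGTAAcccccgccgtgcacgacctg
Cry1: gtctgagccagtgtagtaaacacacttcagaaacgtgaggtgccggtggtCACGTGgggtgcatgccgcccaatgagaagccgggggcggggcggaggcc

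Levels are given as CPM, the counts of a gene scaled to a common library size with TMM factors. Libraries held between 17.9 and 39.7 M counts. The reads of 2 members could not be told apart from those of a neighbour. Nr1d1 carried the same count as Thra, a thyroid hormone receptor gene on the other strand whose end overlaps it by 1075 bases. Cry2 carried the same count as D930015M05Rik, an antisense transcript whose span, introns included, overlaps it over 23417 bases. The library kit named in the labels does not mark strand, and how reads were assigned to such genes is not stated. Why the counts are identical was not tested. These values are joint values and are written Nr1d1/Thra and Cry2/D930015M05Rik. Col4a3 itself carried the same count as its neighbour Col4a4, whose annotated span does not overlap it, and therefore does not check the genotype labels.

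Arntl encodes the partner that both activating pairs need, and it lies at chr7:113207465-113314126 on the plus strand (coordinates of genes are from GENCODE vM21, GRCm38). Its level was 7.66, 3.55 and 23.7 CPM in HET PBS replicates 1 to 3, 19.1, 24.5, 28.7 and 30.6 CPM in KO PBS replicates 1 to 4, and 5.44, 5.0004, 18.9 and 4.25 CPM in KO antimiR-21 replicates 1 to 4. All 4 KO PBS libraries were high, and 1 library of each other group, HET PBS replicate 3 and KO antimiR-21 replicate 3, stood with them or just under them. The highest KO antimiR-21 library lay below the lowest KO PBS library by a narrow margin, 18.9 against 19.1 CPM. The mean was 11.6 ± 10.7 CPM (SD, n = 3) for HET PBS, 25.7 ± 5.11 (n = 4) for KO PBS and 8.41 ± 7.04 (n = 4) for KO antimiR-21. The fitted log2 difference was 1.16 (SE 0.665) for KO PBS over HET PBS and -1.61 (SE 0.618) for KO antimiR-21 over KO PBS. Both use the same KO PBS libraries and are not independent of each other.

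Npas2, the relative of Clock that can also pair with Arntl (chr1:39193731-39363236, plus strand), was high and low in the same libraries as Arntl, over a wider range. Its level was 4.12, 3.28 and 22.4 CPM in HET PBS, 14.1, 16.2, 24.1 and 26.3 CPM in KO PBS, and 1.67, 3.26, 12.8 and 3.69 CPM in KO antimiR-21. As for Arntl, replicate 3 of HET PBS and replicate 3 of KO antimiR-21 stood far above the others of their groups, and KO antimiR-21 lay wholly below KO PBS. The level of 1.67 CPM rested on 30.5 counts (deposited counts come in steps of 0.5), which gives a 95% Poisson interval from 1.11 to 2.34 CPM for counting error only. For Npas2 the log2 difference was 1.04 (SE 0.770) for KO PBS over HET PBS and -1.91 (SE 0.730) for KO antimiR-21 over KO PBS. Between the highest and the lowest of the 11 libraries Npas2 differed 15.8-fold and Arntl 8.61-fold, the widest ranges among the 10 genes.

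Clock, the DNA-binding partner of Arntl (chr5:76209868-76304792, minus strand), moved in the same direction over a smaller range, 2.01-fold. It stood at 56.5, 57.2 and 87.7 CPM in HET PBS, at 67.9, 76.0, 92.4 and 81.9 CPM in KO PBS and at 46.1, 46.7, 82.3 and 62.0 CPM in KO antimiR-21. Here the KO PBS range overlapped both other groups, through replicate 3 of each. For Clock the log2 difference was 0.25 (SE 0.218) for KO PBS over HET PBS and -0.42 (SE 0.202) for KO antimiR-21 over KO PBS. Relative to Clock, Npas2 counts ran from 20.8% to 32.2% in KO PBS and at 3.62%, 6.98% and 5.95% in KO antimiR-21 replicates 1, 2 and 4. They came to 15.6% in KO antimiR-21 replicate 3, 25.5% in HET PBS replicate 3, and 7.29% and 5.74% in the other HET PBS libraries. The make-up of the activating pair at the RNA level thus differed between libraries as well as its amount.

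**Figure D1:**
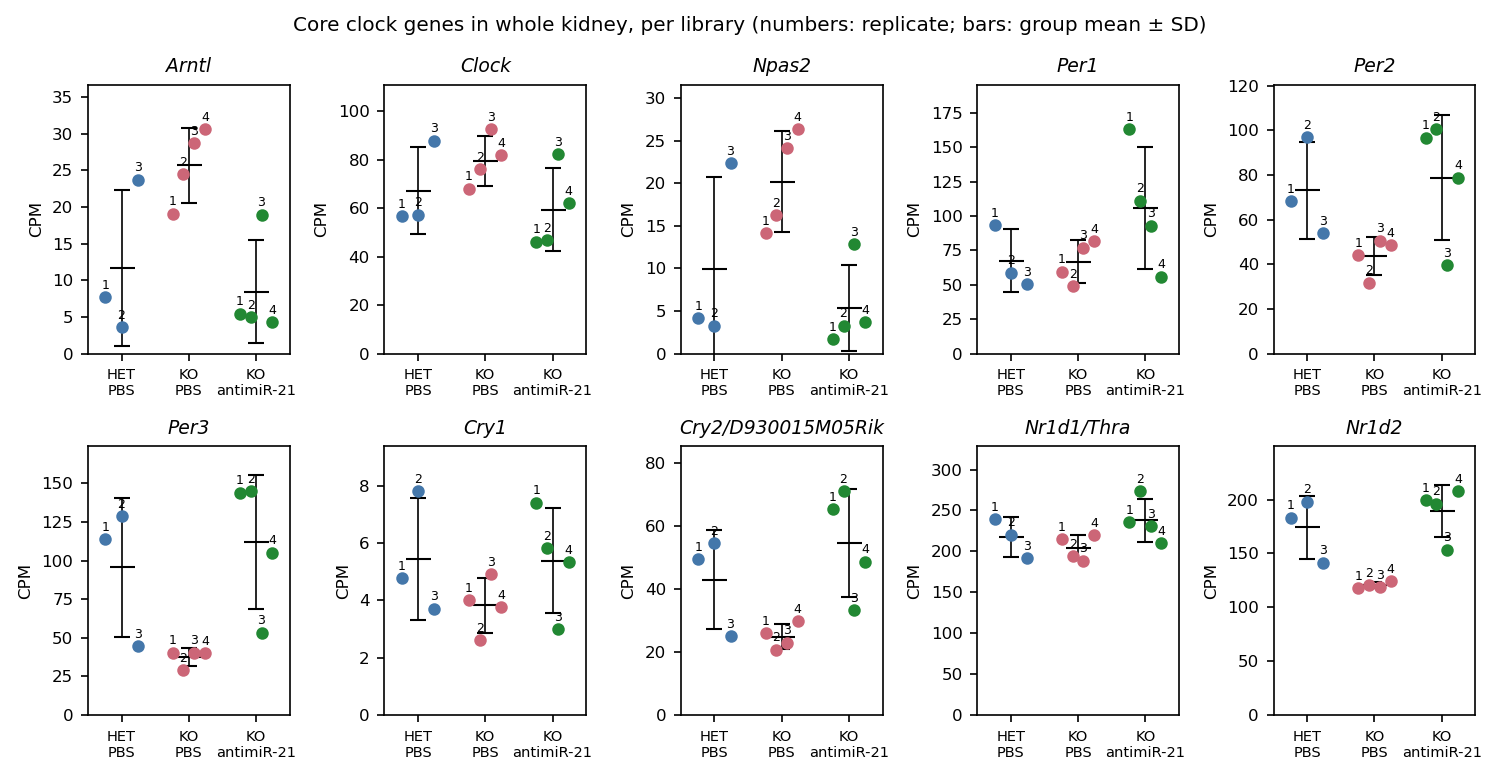
Level in CPM (linear vertical axes from 0, 1 panel per gene) of the 10 clock genes in each of the 11 libraries, which are the points, numbered by replicate; bars give the group mean and SD (n = 3, 4 and 4), and the lower end of that of Npas2 in HET PBS lies below the axis. Arntl, Npas2 and Clock are high in all KO PBS libraries and in replicate 3 of each other group, and Per3, Cry2/D930015M05Rik and Nr1d2 are low in those libraries.

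Per3, the member of the period family with the mildest role in timekeeping (chr4:151003652-151044665, minus strand), ran opposite to Arntl. Its level was 114, 129 and 44.4 CPM in HET PBS, 40.3, 29.0, 40.4 and 40.3 CPM in KO PBS, and 144, 145, 53.2 and 105 CPM in KO antimiR-21. KO PBS lay below every library of both other groups, and the low library of each of those groups was again replicate 3. Averages were 95.7 ± 45.0 CPM (SD, n = 3) for HET PBS, 37.5 ± 5.66 (n = 4) for KO PBS and 112 ± 43.3 (n = 4) for KO antimiR-21. The log2 difference was -1.35 (SE 0.391) for KO PBS over HET PBS and 1.58 (SE 0.372) for KO antimiR-21 over KO PBS.

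Per2, a repressor that the clock cannot run normally without (chr1:91415982-91459324, minus strand), was also lowest on average in KO PBS, with closer values. It was found at 68.1, 96.9 and 54.1 CPM in HET PBS, at 43.9, 31.7, 50.5 and 48.5 CPM in KO PBS and at 96.7, 100.4, 39.4 and 78.7 CPM in KO antimiR-21. HET PBS and KO PBS did not overlap, though by only 54.1 against 50.5 CPM, and KO antimiR-21 replicate 3 lay inside the KO PBS range. Its log2 difference came to -0.74 (SE 0.303) for KO PBS over HET PBS and 0.85 (SE 0.285) for KO antimiR-21 over KO PBS.

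Per1, the period gene that also responds directly to glucocorticoids (chr11:69095217-69109960, plus strand), did not follow Per3. Its level was 93.5, 58.8 and 50.3 CPM in HET PBS, 59.6, 48.9, 77.1 and 82.0 CPM in KO PBS, and 163, 111, 93.0 and 56.0 CPM in KO antimiR-21. The groups overlapped in each comparison, and the libraries that were high for Per3 were not always high for Per1. HET PBS replicate 2 and KO antimiR-21 replicate 4 had much Per3 and little Per1, with 0.456 and 0.533 Per1 counts per Per3 count, against 1.48 to 2.04 in KO PBS. The log2 difference was -0.01 (SE 0.338) for KO PBS over HET PBS, a sign that flips under other scalings (0.01 with upper quartile scaling and 0.06 with library sizes alone), and 0.66 (SE 0.314) for KO antimiR-21 over KO PBS.

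The cryptochromes, the partners of the Per proteins in repression, followed Per2 and Per3. Cry2/D930015M05Rik (Cry2 at chr2:92403646-92434043, minus strand) stood at 49.4, 54.4 and 24.97 CPM in HET PBS, at 25.9, 20.7, 22.9 and 29.7 CPM in KO PBS and at 65.2, 71.1, 33.2 and 48.6 CPM in KO antimiR-21. KO antimiR-21 lay wholly above KO PBS, while HET PBS replicate 3 fell inside the KO PBS range. For this joint count the log2 difference was -0.79 (SE 0.289) for KO PBS over HET PBS and 1.13 (SE 0.273) for KO antimiR-21 over KO PBS. Cry1, the stronger repressor of the family (chr10:85131700-85185064, minus strand), was the least abundant per length of the 8 members with a count of their own and was counted 52 to 285 times per library. Its level was 4.79, 7.82 and 3.71 CPM in HET PBS, 4.02, 2.61, 4.91 and 3.77 CPM in KO PBS, and 7.41, 5.83, 2.99 and 5.32 CPM in KO antimiR-21, with overlap in each comparison. For Cry1 the log2 difference was -0.51 (SE 0.328) for KO PBS over HET PBS and 0.49 (SE 0.309) for KO antimiR-21 over KO PBS. Across the 11 libraries the log2 levels of Cry1 and Per2 had a Pearson r of 0.93 (Spearman rho 0.89), given as a description of libraries that share groups and scaling.

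Nr1d2, the REV-ERB beta repressor (chr14:18204054-18239127, minus strand), had the narrowest spread within KO PBS of the 10 genes. Its level was 118, 121, 119 and 124 CPM in the 4 KO PBS libraries, a range of 1.05-fold, beside 183, 198 and 142 CPM in HET PBS and 199.5, 196, 153 and 208 CPM in KO antimiR-21. No library of either other group came down to the KO PBS range, and within those groups replicate 3 was the lowest. By group, HET PBS averaged 174 ± 29.3 CPM (SD, n = 3), KO PBS 120.3 ± 2.76 (n = 4) and KO antimiR-21 189 ± 24.5 (n = 4). The log2 difference was -0.53 (SE 0.125) for KO PBS over HET PBS and 0.65 (SE 0.117) for KO antimiR-21 over KO PBS. Nr1d1/Thra (Nr1d1 at chr11:98767932-98775333, minus strand) gave 239.6, 220.3 and 191 CPM in HET PBS, 215, 194, 189 and 219.5 CPM in KO PBS, and 236, 274, 231 and 210.4 CPM in KO antimiR-21. This joint count varied least of all, 1.45-fold over the 11 libraries, and its groups overlapped in each comparison. How much of it belongs to Nr1d1, and so how far the REV-ERB alpha transcript itself varied, could not be read from a shared count. Its log2 difference was -0.09 (SE 0.110) for KO PBS over HET PBS and 0.22 (SE 0.102) for KO antimiR-21 over KO PBS.

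Per length of exon, Nr1d2 was the most abundant of the 8 genes with a count of their own, with a median level of 28.4 CPM per kb over the libraries (21.8 to 38.5). Per1 followed at 13.7 CPM per kb (8.68 to 29.0), Per2 at 9.23, Per3 at 5.54, Clock at 4.95, Npas2 at 2.67 (0.348 to 5.50), Arntl at 2.52 (0.473 to 4.07) and Cry1 at 1.43. Each gene in this order overlapped its neighbours over the libraries.

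KO antimiR-21 and HET PBS each held libraries rich and poor in Arntl. The log2 difference of KO antimiR-21 over HET PBS was -0.45 (SE 0.658) for Arntl, -0.18 (SE 0.217) for Clock and -0.87 (SE 0.769) for Npas2. For the repressors it was 0.65 (SE 0.343) for Per1, 0.11 (SE 0.305) for Per2, 0.22 (SE 0.391) for Per3, -0.02 (SE 0.328) for Cry1, 0.34 (SE 0.292) for Cry2/D930015M05Rik, 0.13 (SE 0.111) for Nr1d1/Thra and 0.12 (SE 0.126) for Nr1d2. Of the 10 genes, 0 had groups that did not overlap, beside 5.99% of all 14380 loci tested. The standard errors leave room for sizeable differences, and a small difference here does not show that the groups are the same.

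**Figure D2:**
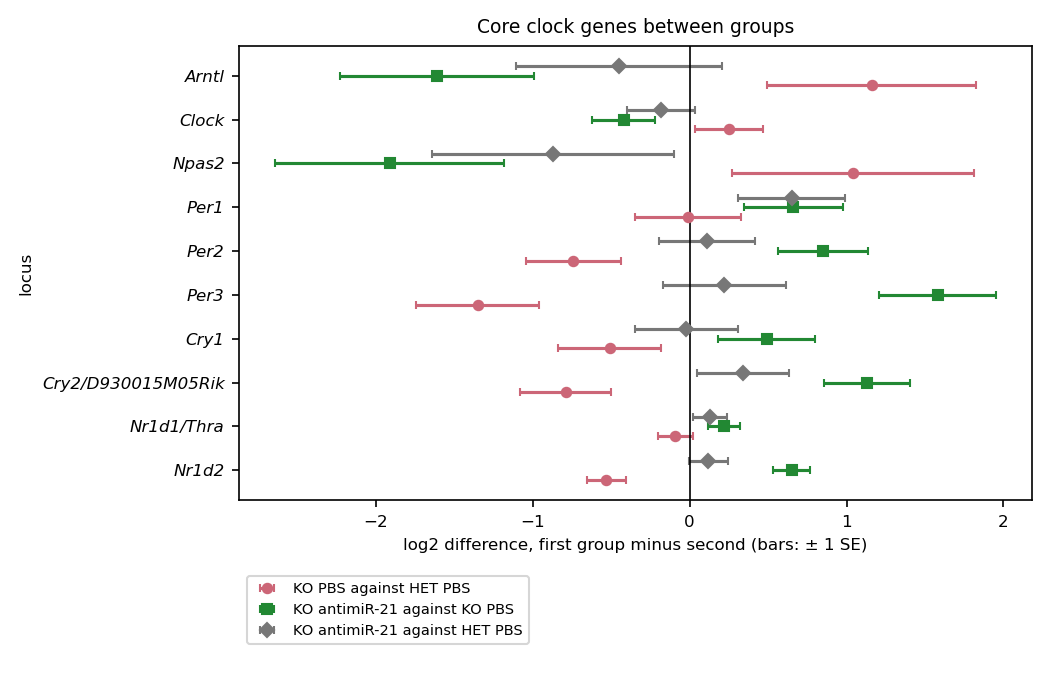
Fitted log2 difference by edgeR of each of the 10 clock genes in the 3 comparisons, which share libraries. Horizontal bars give its standard error, derived from the edgeR F statistic, and the vertical line marks 0. Arntl, Clock and Npas2 lie to the right of 0 for KO PBS over HET PBS and to the left for KO antimiR-21 over KO PBS, Per2, Per3, Cry1, Cry2/D930015M05Rik and Nr1d2 lie the other way, and Per1 is at -0.01 in the first comparison.

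Counted over the set, KO PBS lay wholly below HET PBS for Per2, Per3 and Nr1d2, 3 of 10 genes, beside 3.21% of all loci that were lower without overlap and 6.75% in either direction. KO antimiR-21 lay wholly below KO PBS for Arntl and Npas2 and wholly above it for Per3, Cry2/D930015M05Rik and Nr1d2, 5 of 10 genes, beside 4.28% of all loci (1.95% lower and 2.34% higher). The median log2 difference of the 10 genes was -0.30 for KO PBS over HET PBS, 0.57 for KO antimiR-21 over KO PBS and 0.11 for KO antimiR-21 over HET PBS, beside -0.02, 0.00 and 0.00 over all loci. At an adjusted p under 0.05 by edgeR's quasi-likelihood test, 0 of the 10 genes passed in each comparison, beside 0%, 0% and 0.00695% of all loci. At an unadjusted p under 0.05, edgeR had 4 of 10 for KO PBS against HET PBS (Per2, Per3, Cry2/D930015M05Rik and Nr1d2, all lower, beside 6.94% of all loci in either direction and 2.73% lower), 6 of 10 for KO antimiR-21 against KO PBS (the same 4 higher, Arntl and Npas2 lower, beside 8.21% of all loci, 4.76% higher and 3.46% lower) and 0 of 10 for KO antimiR-21 against HET PBS (8.05% of all loci). DESeq2 called Per3 and Nr1d2 in the first comparison (0.584% of all loci), Per3, Cry2/D930015M05Rik and Nr1d2 in the second (0.96%) and 0 of 10 in the third (0.515%), and limma-voom called 0 of 10 in each, beside 0% of all loci. Since the genes were chosen with these contrasts in view, the counts describe them and test nothing.

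The size of these differences depended on the tool for some genes and on single libraries. For KO PBS over HET PBS, edgeR and DESeq2 both gave 1.16 for Arntl and 1.04 for Npas2, while limma-voom gave 1.70 and 1.67. For KO antimiR-21 over KO PBS, limma-voom gave -1.87 for Arntl and -2.28 for Npas2, beside -1.61 and -1.91 by edgeR. Without HET PBS replicate 3 the log2 difference of KO PBS over HET PBS was 2.22 for Arntl, 2.46 for Npas2, 0.50 for Clock, -1.68 for Per3 and -0.65 for Nr1d2. Without KO antimiR-21 replicate 3 that of KO antimiR-21 over KO PBS was -2.39 for Arntl, -2.82 for Npas2, -0.62 for Clock, 1.81 for Per3 and 0.74 for Nr1d2, and edgeR then called Nr1d2 alone of the 10 genes, beside 0.111% of all loci. Without HET PBS replicate 3, KO antimiR-21 over HET PBS turned positive for Arntl (0.60), Npas2 (0.54) and Clock (0.06), and negative for Per2 (-0.07), Per3 (-0.12) and Nr1d2 (-0.01). Leaving out other libraries made some differences larger and others smaller. Among the larger, KO PBS over HET PBS was -0.79 for Per2 and -0.60 for Cry1 without HET PBS replicate 1. The values that follow were smaller. Without HET PBS replicate 2, KO PBS over HET PBS was 0.74 for Arntl, 0.63 for Npas2, 0.16 for Clock, -0.47 for Per2 and -0.14 for Cry1, and without HET PBS replicate 1 it was 0.67 for Npas2 and 0.14 for Clock. Without KO antimiR-21 replicate 1, KO antimiR-21 over KO PBS was 0.37 for Per1 and 0.30 for Cry1, and without KO antimiR-21 replicate 2 it was 0.13 for Nr1d1/Thra. All of these libraries were kept in the other values.

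The spread within groups was wide for most of the set. On the log2 scale the pooled SD within groups was 1.09 for Npas2, 0.93 for Arntl and 0.61 for Per3, and 98.2%, 97.3% and 91.5% of all loci had a smaller one. It was 0.50 for Per1, 0.49 for Cry1, 0.48 for Per2, 0.45 for Cry2/D930015M05Rik and 0.32 for Clock, all above the median of 0.22 over all loci. Nr1d2 and Nr1d1/Thra lay below that median, at 0.18 and 0.14.

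To set libraries side by side, a clock index was computed for each as the mean of centred log2 CPM of Per1, Per2, Per3, Nr1d1/Thra and Nr1d2 minus that of Arntl, Clock and Npas2. Libraries rich in repressor transcripts have positive values. The index was 0.93, 1.39 and -1.28 in HET PBS, -0.89, -1.40, -1.41 and -1.36 in KO PBS and 1.97, 1.63, -0.66 and 1.08 in KO antimiR-21. The 11 libraries fell on separate sides of 0, with 6 below and 5 above and no library between -0.66 and 0.93. All KO PBS libraries were on the low side, where each other group had 1 library, replicate 3. HET PBS averaged 0.35 ± 1.43 (SD, n = 3), KO PBS -1.27 ± 0.25 (n = 4) and KO antimiR-21 1.01 ± 1.17 (n = 4), so that the SD of the mixed groups was several times that of KO PBS. The index differed by -1.62 for KO PBS over HET PBS, by 2.27 for KO antimiR-21 over KO PBS and by 0.66 for KO antimiR-21 over HET PBS. Without HET PBS replicate 3 the last of these was -0.16 and the first -2.43. The same contrast of libraries can be read from a pair of genes. The number of Per3 counts per Arntl count was 14.9, 36.2 and 1.87 in HET PBS, 2.12, 1.18, 1.41 and 1.32 in KO PBS, and 26.5, 29.0, 2.81 and 24.7 in KO antimiR-21.

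**Figure D3:**
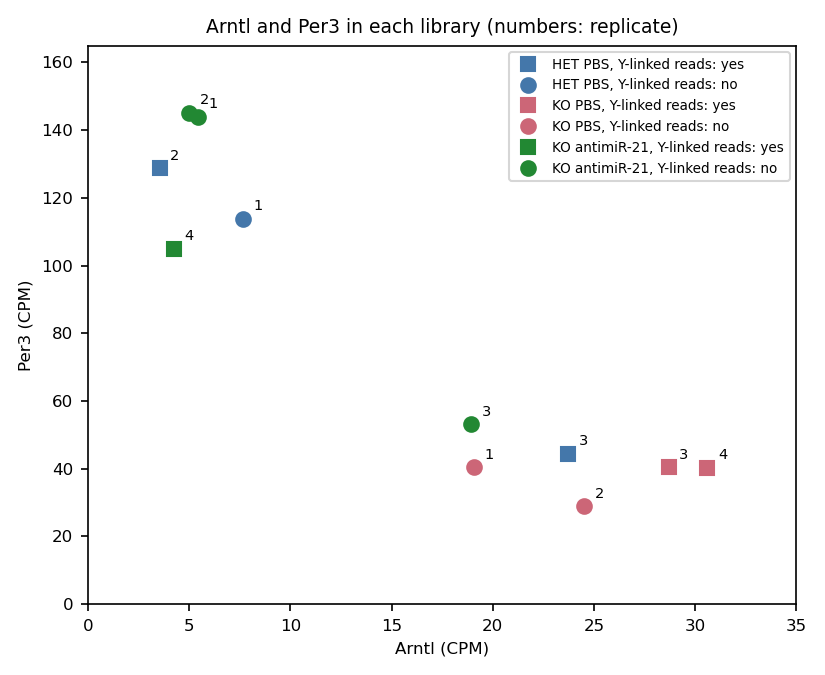
Arntl (horizontal) against Per3 (vertical) in CPM, both on linear axes from 0, 1 point per library, coloured by group, numbered by replicate and drawn as a square where Ddx3y is above 5 CPM and as a circle elsewhere. All 4 KO PBS libraries lie at the lower right with HET PBS replicate 3 and KO antimiR-21 replicate 3, and the other 5 libraries lie at the upper left.

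Members differed in how closely they kept to this split. Over the 11 libraries the Pearson r of log2 CPM with the index was -0.987 for Npas2, -0.965 for Arntl, 0.982 for Per3, 0.944 for Nr1d2 and 0.904 for Per2, all of which are part of the index. It was 0.972 for Cry2/D930015M05Rik and 0.814 for Cry1, which are not. Per1 had 0.527 (Spearman rho 0.527), and 0.061 without the 2 libraries farthest from the median, KO antimiR-21 replicates 1 and 2. Within the 6 libraries below 0, r was -0.882 for Arntl, -0.810 for Npas2, 0.663 for Per3 and 0.687 for Cry2/D930015M05Rik, while Per2 had -0.179 and Cry1 -0.216. Much of the likeness over 11 libraries is therefore the difference between the sides of the split, and these coefficients describe the libraries without a test.

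Of the 10007 other loci with a mean of at least 5 CPM, those most like the index were Car11/Sphk2 (a joint count of a carbonic anhydrase-related gene and sphingosine kinase 2), with an r of 0.987, Tmem57 (0.978), Usp2 (0.966), Cd300lg (0.965), Nampt (0.963) and Sesn2 (0.957). Those most opposite were Insc (-0.970), Hs6st1 (-0.968), Itgb6 (-0.967), Cgn (-0.967), Leo1 (-0.964) and Slc16a1 (-0.959). Sesn2 encodes a stress-induced regulator of metabolism, Itgb6 an epithelial integrin subunit and Cgn the tight junction protein cingulin. Of the 10007 loci, 68 had an r above 0.9 and 44 had one below -0.9. No other split of the libraries was ranked for comparison. Car11/Sphk2 ran from 100.6 to 349.6 CPM, with 250.2, 324 and 111 CPM in HET PBS, 109, 100.6, 111 and 109.5 CPM in KO PBS, and 326, 349.6, 145 and 302 CPM in KO antimiR-21. Slc16a1, a monocarboxylate transporter, went the other way, with 26.4, 20.4 and 68.1 CPM in HET PBS, 46.5, 51.9, 66.5 and 63.3 CPM in KO PBS, and 20.4, 19.2, 32.9 and 25.5 CPM in KO antimiR-21. For both loci KO antimiR-21 replicate 3 lay between the KO PBS libraries and the rest of its own group.

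**Figure D4:**
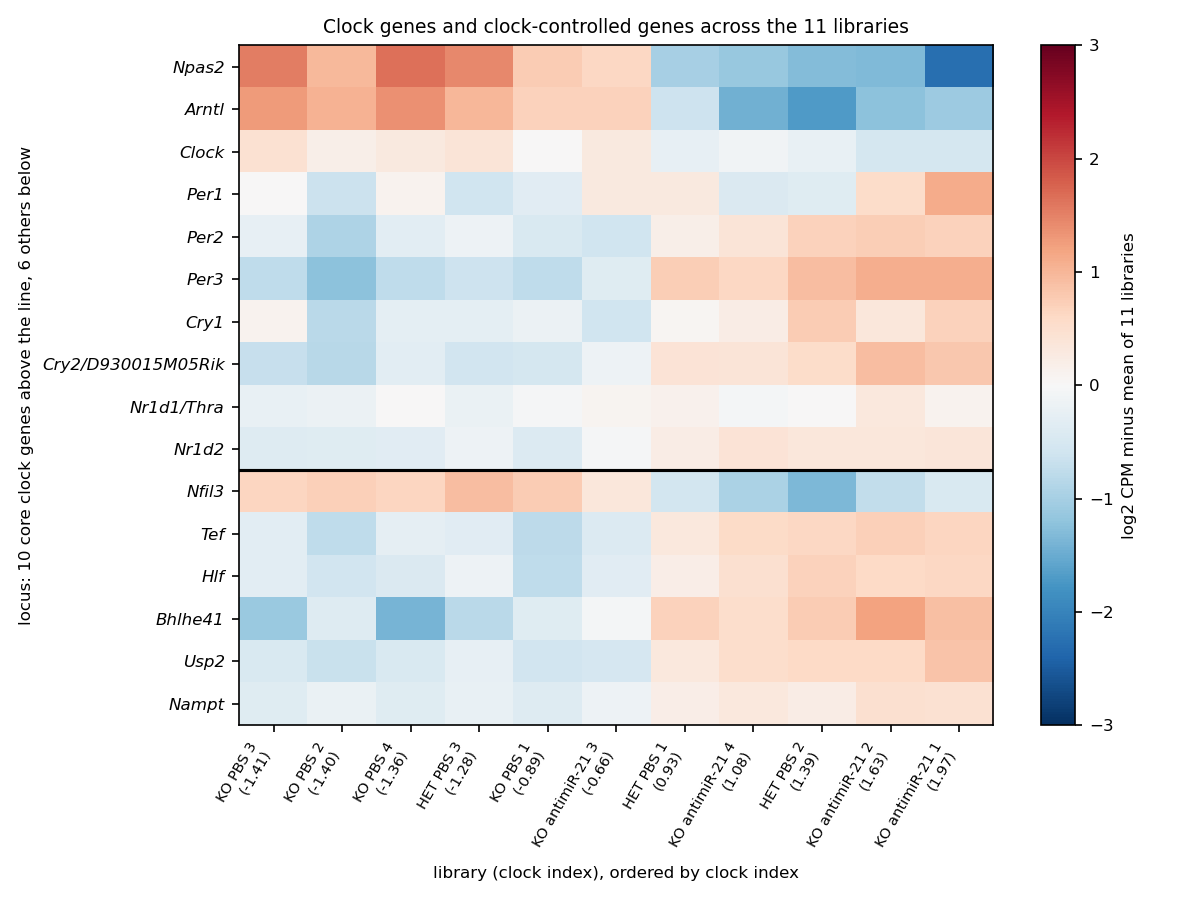
Centred log2 CPM (colour) of the 10 clock genes and 6 clock-linked genes (Nfil3, Tef, Hlf, Bhlhe41, Usp2 and Nampt, picked for display after their values were seen) in the 11 libraries, which are ordered by the clock index. Npas2, Arntl and Nfil3 change sign where the index passes 0, opposite to Per3, Tef and Usp2, while Per1 and Nr1d1/Thra show no such clean boundary.

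Genes downstream of the loop were counted from lists of known function. Of 12 listed clock output factors 9 were measured, and the others were not analysed here. Of these 9 genes, 3 were lower and 0 higher in KO PBS than in HET PBS at an unadjusted p under 0.05 (edgeR; 6.94% of all loci in either direction), with a median log2 difference of -0.30. In KO antimiR-21 over KO PBS 4 were higher and 1 lower (8.21% of all loci in either direction), with a median of 0.47. Hlf, Tef and Bhlhe41 had the smallest p in both comparisons. Tef, an activator at D-boxes, stood at 569.7, 705 and 362 CPM in HET PBS, at 266, 269.6, 366 and 378 CPM in KO PBS and at 709, 752, 346 and 684 CPM in KO antimiR-21. Replicate 3 of HET PBS and replicate 3 of KO antimiR-21 again lay within the KO PBS range. For Tef the log2 difference came to -0.77 (SE 0.278; adjusted p = 0.608 by edgeR) for KO PBS over HET PBS and 0.96 (SE 0.261; adjusted p = 0.334 by edgeR) for KO antimiR-21 over KO PBS. Hlf, of the same family, had -0.80 (SE 0.237) and 0.90 (SE 0.223), and Bhlhe41, a repressor at E-boxes, -1.15 (SE 0.411) and 1.49 (SE 0.391). Nfil3, the repressor at D-boxes, had the opposite order, with 3.52, 2.004 and 10.04 CPM in HET PBS, 8.93, 8.67, 8.30 and 8.15 CPM in KO PBS, and 3.77, 3.07, 6.65 and 2.70 CPM in KO antimiR-21. By edgeR 0 of the 9 passed at the adjusted threshold in either comparison, and DESeq2 called 0 and 3, beside 0.584% and 0.96% of all loci.

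Regulators of the clock proteins include their kinases, ubiquitin ligases and deubiquitinases. Of 24 measured genes of 26 listed, 2 were lower and 0 higher in KO PBS than in HET PBS at an unadjusted p under 0.05 (edgeR), beside 6.94% of all loci in either direction (2.73% lower). In KO antimiR-21 against KO PBS 2 were higher and 1 lower, beside 8.21% of all loci (4.76% higher), and the medians were -0.07 and -0.01. The pair in both comparisons was Usp2, a deubiquitinase of Per and Cry proteins that is itself under clock control, and Nampt, which makes the NAD precursor used by the clock-linked enzyme Sirt1. Usp2 stood at 192, 236 and 130.4 CPM in HET PBS, at 104.5, 97.8, 114 and 113 CPM in KO PBS and at 282, 236, 109.5 and 223 CPM in KO antimiR-21. In the same comparisons its log2 difference came to -0.80 (SE 0.271; adjusted p = 0.585 by edgeR) and 0.99 (SE 0.255; adjusted p = 0.334). For Nampt these were -0.40 (SE 0.152, edgeR adjusted p = 0.638) and 0.63 (SE 0.142, edgeR adjusted p = 0.315). The other regulators with the smallest p were Timeless in the first comparison (0.29, SE 0.157) and the joint BC031361/Gsk3b locus, which holds a kinase of clock proteins, in the second (-0.16, SE 0.0691). Of 12 measured clock-controlled transcripts of many tissues (14 listed), 4 were lower and 1 higher in the first comparison and 6 were higher and 1 lower in the second, beside 6.94% and 8.21% of all loci in either direction, with medians of -0.30 and 0.40. These include Usp2, the deadenylase Ccrn4l (log2 difference 1.24 for KO antimiR-21 over KO PBS, SE 0.385) and Tsc22d3, which is also a glucocorticoid target (0.83, SE 0.258). In KO PBS over HET PBS, Por, the electron donor of cytochrome P450 enzymes, had -0.44 (SE 0.160), and Cdkn1a, the cell cycle inhibitor p21, had 0.64 (SE 0.266). None of these 5 passed the adjusted threshold of edgeR. In the first and second comparisons DESeq2 called 0 and 2 of the 24 regulators and 0 and 1 of the 12 clock-controlled transcripts, beside 0.584% and 0.96% of all loci.

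Lists of genes that follow hormones, temperature or acute stimuli over the day gave other counts. Of 12 measured glucocorticoid-responsive genes 2 were higher and 1 lower in KO antimiR-21 than in KO PBS at an unadjusted p under 0.05 (edgeR; 8.21% of all loci in either direction), with a median log2 difference of 0.49. In KO PBS against HET PBS 1 was higher and 0 lower (6.94% of all loci), with a median of 0.02. The phosphatase gene Dusp1 had 0.95 (SE 0.323) and Cdkn1a -0.62 (SE 0.245) in KO antimiR-21 over KO PBS. The receptor co-chaperone Fkbp5 stood at 53.8 ± 19.9 CPM in KO PBS (SD, n = 4) against 107 ± 44.0 CPM in HET PBS (n = 3), and the metallothionein Mt2 had a log2 difference of 0.56 (SE 0.376) between them. Of 11 measured temperature and heat shock genes 3 were lower and 0 higher in KO PBS than in HET PBS (2.73% of all loci were lower), and 1 was higher and 1 lower in KO antimiR-21 than in KO PBS (8.21% of all loci in either direction). Hspa8, a constitutive HSP70 chaperone, had -0.51 (SE 0.173, edgeR adjusted p = 0.584) and then 0.58 (SE 0.162, edgeR adjusted p = 0.343). The others lower in KO PBS were Hsph1 (-0.39, SE 0.140) and Chordc1 (-0.26, SE 0.104), and Hsp90aa1 was the one lower in KO antimiR-21 (-0.50, SE 0.173), followed by the joint Hsp90ab1/Slc35b2 locus (-0.19, SE 0.118). Of 15 immediate early genes 7 were higher and 0 lower in KO PBS than in HET PBS (4.21% of all loci were higher), and 6 were higher and 0 lower in KO antimiR-21 than in HET PBS (5.04% of all loci were higher), with medians of 0.40 and 0.48. Egr1 stood at 7.23, 4.502 and 5.29 CPM in HET PBS, at 17.6, 13.6, 9.36 and 13.4 CPM in KO PBS and at 12.03, 9.14, 20.3 and 9.10 CPM in KO antimiR-21, so that HET PBS replicate 3 stayed with its group here. Egr2 (2.89, SE 0.558) and Fos (1.59, SE 0.424) had the other smallest p in KO PBS over HET PBS. Both were at low levels in HET PBS, 0.365, 0.220 and 0.156 CPM for Egr2 and 0.508 to 1.37 CPM for Fos. Dusp1, which is on this list too, stood at 82.9, 51.4 and 28.4 CPM in HET PBS, at 41.4 to 48.9 CPM in KO PBS, and at 85.8, 127, 49.2 and 82.1 CPM in KO antimiR-21. Its level in HET PBS replicate 3 lay below every KO PBS library. In KO antimiR-21 over KO PBS, Zfp36 had 0.68 (SE 0.312) and Fosb -1.39 (SE 0.377). Fosb was also at a low level, with means of 0.802 CPM in KO PBS and 0.304 CPM in KO antimiR-21. At the adjusted threshold edgeR called 0 genes of these 3 lists in any comparison. DESeq2 called 3 immediate early genes in KO PBS against HET PBS (0.584% of all loci) and 2 in KO antimiR-21 against HET PBS (0.515%). It called 0 in KO antimiR-21 against KO PBS, and 0 genes of the other lists of these 3.

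Other differences between libraries ran beside these values. Reads of the Y-linked gene Ddx3y above 5 CPM were present in HET PBS replicates 2 and 3, KO PBS replicates 3 and 4 and KO antimiR-21 replicate 4. Within the libraries with them HET PBS averaged an index of 0.06 ± 1.89 (SD, n = 2) and KO PBS -1.39 ± 0.03 (n = 2), and the 1 KO antimiR-21 library had 1.08. Within those without, the 1 HET PBS library had 0.93, KO PBS averaged -1.15 ± 0.36 (n = 2) and KO antimiR-21 averaged 0.98 ± 1.43 (n = 3). Both sides of the split held libraries of either kind, and KO PBS had the lowest mean index within each. The summed level of 5 adipose markers (Adipoq, Ucp1, Plin1, Cidea and Lep) was 33.9 and 5.97 CPM in KO antimiR-21 replicates 1 and 2 and 10.2 CPM in KO PBS replicate 4, and from 0.156 to 1.37 CPM in the other 8 libraries. Of 7 listed adrenal markers, Cyp11b1 and Cyp11b2 were at 0 in all libraries. Cyp11a1, Cyp21a1 and Th reached at most 0.387, 0.0829 and 0.276 CPM, each in KO antimiR-21 replicate 2. Hsd3b1 ran from 0.631 to 1.70 CPM and the joint Ash2l/Star locus from 59.1 to 64.6 CPM. Without the 3 libraries with adipose markers, chosen after seeing the data, the index difference was -0.14 for KO antimiR-21 over HET PBS, 1.45 for KO antimiR-21 over KO PBS and -1.58 for KO PBS over HET PBS. Only replicates 3 and 4 of KO antimiR-21 then remained. Single genes of KO antimiR-21 over KO PBS had smaller differences, -1.07 for Arntl, -0.14 for Clock, -1.15 for Npas2, 0.26 for Per1, 0.48 for Per2, 0.10 for Cry1 and 0.14 for Nr1d1/Thra. Per3 had 1.10, Cry2/D930015M05Rik 0.81 and Nr1d2 0.59. Kidney markers were present in each library, with 3 proximal tubule genes that have a count of their own, of 6 listed, summing to between 4071 and 5894 CPM. The other 3 markers of that segment, the joint loci of Slc34a1, Slc5a2 and Slc5a12, lay wholly lower in KO PBS than in HET PBS (log2 differences of -0.41, -0.26 and -0.36). Over all loci 3.21% were lower without overlap. The 3 summed genes, Lrp2, Cubn and Slc22a6, overlapped between these groups (-0.10, -0.17 and -0.36). Of 5 fibroblast markers 3 were higher and 0 lower in KO PBS than in HET PBS at an unadjusted p under 0.05 (edgeR; 4.21% of all loci were higher), among them Col3a1 at 1.23 (SE 0.283). Their sum ran from 285 to 466 CPM in HET PBS, from 494 to 988 CPM in KO PBS and from 466 to 752 CPM in KO antimiR-21. Of 3 measured macrophage markers 2 were higher there, among them Lyz2 at 1.34 (SE 0.363). The part of adipose tissue, fibroblasts, macrophages and tubule segments in the values of the clock genes was not tested. In whole tissue, fewer cells of a type and less RNA per cell cannot be told apart.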

How the data were processed

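Whole-kidney mRNA libraries of 11 samples in 3 groups were used. Libraries were made with the TruSeq RNA v2 kit from 150 ng of total RNA, per the labels' protocols. Tools in the submitters' processing notes are STAR, HTSeq 0.5.4p5, SAMtools, FastQC and limma, with mm10 as build; which annotation was counted, and how, is not stated there. The authors deposited expected counts per gene (steps of 0.5, 47.4% of values above 0 not whole, not normalized) and a matrix of log2 values that the authors computed from them, used here only as an alternative.

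Names with identical counts in all 11 libraries were joined into 1 locus (1513 pairs). Counts were rounded and tested with edgeR 4.0.16 (R 4.3.3; filterByExpr, TMM, robust quasi-likelihood fit of 3 groups, Benjamini-Hochberg over 14380 loci, threshold 0.05). edgeR does not report a standard error, so each SE given with its log2 differences was derived as the absolute difference over the square root of the F statistic. The biological coefficient of variation was 0.215. DESeq2 1.42.0, limma-voom (limma 3.58.1), other scalings, filters and covariates were alternatives. On simulated counts for KO PBS against HET PBS (14212 loci), the edgeR fit called 60.4% of loci changed by 1 and 84.7% of those changed by 2 on the log2 scale, with 7 false calls. The changed loci were drawn at random and all loci varied independently of each other. These shares therefore do not hold for the clock genes, most of which varied more within groups than the median locus. The clock index uses log2 CPM with a prior count of 2. Members of joint loci were left out of levels per length.

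Replicate libraries differed by more than sampling noise. Deposited totals lay between 22.4 and 49.7 M (17.9 and 39.7 M once names were joined), and intervals cover counting error only. The members and the gene lists were chosen with earlier results of these data known. The rule for named genes took all members, the 3 genes with the smallest p of each list and comparison (those of KO antimiR-21 against HET PBS are not all named), and the 6 loci most and least like the index among 10007 with a mean of at least 5 CPM; other genes were chosen after their values were seen. Some listed genes are not analysed here, and 1 gene that the rule takes is not reported here.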

Additional observations from a re-analysis of the deposited data

Results flagged for a closer look

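Of 22 groups of 4 libraries examined (10 genes and the clock index, in KO PBS and KO antimiR-21), 3 held a library far from the others, where the gap to the nearest library is over 0.829 of the range of the group. Chance gives about 1 in 20 such groups, and the genes are not independent. Arntl stood at 18.9 CPM in KO antimiR-21 replicate 3, with a gap of 0.919 of the range, against 4.25 to 5.44 CPM in the other libraries of the group. Per3 stood at 29.0 CPM in KO PBS replicate 2, with a gap of 0.989 of the range, against 40.3 to 40.4 CPM in the other 3. The clock index was -0.891 in KO PBS replicate 1, with a gap of 0.907 of the range, while the other 3 had -1.41 to -1.36. The HET PBS group of 3 is too small for this measure.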

How the results depend on the processing

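Counts of loci at an adjusted p under 0.05 depended on the tool. For KO PBS against HET PBS, edgeR called 0 loci, DESeq2 84, a fit with Y-linked status as a covariate 3, the authors' deposited log2 matrix 1, and the fits that leave out 1 replicate 0 to 2. For KO antimiR-21 against KO PBS, edgeR called 0, DESeq2 138, and leaving out 1 replicate 0 to 16. For KO antimiR-21 against HET PBS, edgeR called 1 (Fcrls), DESeq2 74, limma-voom 0, the Y-linked covariate 2, the deposited log2 matrix 2, leaving out 1 replicate 0 to 4, and leaving out the 3 libraries with adipose markers 0. The cause of these differences was not tested.

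Deviations from the group means had an r from -0.444 to 0.629 between libraries with the same replicate number. Between libraries with different numbers it ran from -0.718 to 0.625. These values do not settle whether the numbers pair libraries. With the replicate block edgeR called 2, 26 and 4 loci in these comparisons, Nr1d2 among the 26 (0.181% of all loci).

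Of 54 values of the index differences 52 kept their direction and lay within 1 SD between replicates of the reported value. Many of the 54 could hardly differ from it, so this count does not measure robustness. The scaling of a library nearly cancels in the index, and a left-out library of the group not compared does not enter a difference. The index difference of KO antimiR-21 over HET PBS (0.66) was -0.14 without the adipose-marker libraries and ran from -0.16 to 1.21 with 1 replicate left out. Of 630 log2 differences of the members under alternatives 30 changed sign. Per1 in KO PBS over HET PBS was 0.01 with limma-voom, 0.01 with upper quartile scaling, 0.06 with library sizes alone, 0.12 with the replicate block, 0.00 with the Y-linked covariate, 0.02 in the deposited log2 matrix and -0.18 to 0.29 with 1 replicate left out. Nr1d1/Thra there was 0.01 with library sizes alone. In KO antimiR-21 over HET PBS, Cry1 was 0.02 with upper quartile scaling, 0.05 with library sizes alone and 0.08 with the Y-linked covariate. Without the adipose-marker libraries, added after seeing the data, Arntl was 0.01, Clock 0.11, Per2 -0.30, Per3 -0.27 and Cry2/D930015M05Rik -0.07 there. With 1 replicate left out, that comparison ran from -1.23 to 0.60 for Arntl, -0.38 to 0.06 for Clock, -1.78 to 0.54 for Npas2, -0.07 to 0.37 for Per2, -0.12 to 0.49 for Per3, -0.23 to 0.34 for Cry1 and -0.01 to 0.22 for Nr1d2. In KO antimiR-21 over KO PBS no member changed sign under any alternative run, though Clock was -0.14, Per1 0.26 and Cry1 0.10 without the adipose-marker libraries. Counting error is largest for Cry1 and Npas2, counted 52 and 30.5 times in their lowest libraries.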
